A study of Mus musculus with 14 samples.

Results

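Hepatocytes make most of the proteins of blood plasma, and 10 genes for such proteins were followed here in RNA of sorted liver sinusoidal endothelial cells (LSECs), the fenestrated endothelium that lines the liver sinusoids. The genes were Alb, Apoa1, Apoa2, Apob, Apoc3, Ttr, Serpina1a, Fga, Fgb and Fgg, taken as the rows of the count table whose Ensembl identifiers carry these symbols in GENCODE vM21. They are 10 of 54524 genes in the table and 10 of the 26626 genes that passed the filter on low counts. LSECs are not the cells that make these proteins, and the reads of these genes were taken as a measure of hepatocyte RNA in each sorted sample. In such bulk samples, fewer hepatocytes and less RNA per hepatocyte cannot be told apart.

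All 14 samples came from male Balb/c mice aged 10 to 12 weeks per the labels, and the methods give a slightly older range. Healthy mice (n = 4) were not treated. The other mice received 1 intraperitoneal injection of CCl4, a solvent that is activated in pericentral hepatocytes and kills them, at 0.5 µl per g of body weight in mineral oil, and livers were taken after 1 day (n = 2), 3 days (n = 4) or 7 days (n = 4). Further day 1 samples were left out by the study because of low RNA integrity, and no mice injected with oil alone were among these samples. After perfusion, cells were sorted as CD32 positive and negative for F4/80, ultraviolet autofluorescence and propidium iodide, and the methods add a gate against CD45. Samples of 1 group were treated as separate mice, as their labels are numbered samples. The p-values measure the spread between these samples.

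Albumin (Alb) carries fatty acids and drugs in plasma and sets its osmotic pressure. Apolipoproteins A-I and A-II (Apoa1, Apoa2) build high-density lipoprotein, apolipoprotein B (Apob) is the backbone of very-low-density lipoprotein, and apolipoprotein C-III (Apoc3) slows the clearance of triglyceride-rich particles. Transthyretin (Ttr) carries thyroxine and retinol-binding protein, alpha-1-antitrypsin (Serpina1a) inhibits neutrophil elastase, and the fibrinogen alpha, beta and gamma chains (Fga, Fgb, Fgg) join into the clotting protein that thrombin cleaves to fibrin. Hepatocyte nuclear factors and C/EBP proteins drive this set of genes in hepatocytes, and interleukin-6 raises fibrinogen and lowers albumin in the acute-phase response.

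RefSeq promoter windows on GRCm38.p6 were matched for 8 of the 10 genes (not for Apoc3 and Ttr). The 250 bases before the RefSeq start are shown for 3 genes, because they hold the letters of a hepatocyte factor (Alb) and those of the interleukin-6 response shared by the beta and gamma fibrinogen chains, with the matching letters in capitals. The windows lie at chr5:90460620-90460869 on the plus strand (Alb), chr3:83049864-83050113 on the minus strand (Fgb) and chr3:83007474-83007723 on the plus strand (Fgg).
Alb: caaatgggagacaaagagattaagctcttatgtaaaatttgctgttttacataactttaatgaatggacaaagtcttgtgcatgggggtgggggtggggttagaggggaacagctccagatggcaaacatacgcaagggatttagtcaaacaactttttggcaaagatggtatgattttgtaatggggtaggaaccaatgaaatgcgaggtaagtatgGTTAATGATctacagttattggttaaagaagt
Fgb: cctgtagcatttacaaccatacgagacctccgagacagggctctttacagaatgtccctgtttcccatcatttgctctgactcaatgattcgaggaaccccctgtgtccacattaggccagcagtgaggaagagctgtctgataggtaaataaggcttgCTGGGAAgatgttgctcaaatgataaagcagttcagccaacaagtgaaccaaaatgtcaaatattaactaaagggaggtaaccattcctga
Fgg: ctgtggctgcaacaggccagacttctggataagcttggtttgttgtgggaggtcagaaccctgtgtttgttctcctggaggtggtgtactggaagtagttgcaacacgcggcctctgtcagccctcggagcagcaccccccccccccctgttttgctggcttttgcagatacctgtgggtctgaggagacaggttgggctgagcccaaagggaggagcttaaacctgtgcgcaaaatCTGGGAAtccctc

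The HNF1 letters GTTAATNAT were found in the windows of Alb, 32 to 24 bases before the RefSeq start, and of Fga, 46 to 38 bases before it on the other strand, against 0.737% of the 32851 windows in the RefSeq table. RefSeq and GENCODE vM21 starts differ for some genes. The Alb window ends at 90460869 and the GENCODE gene starts at 90460897. The Fga window ends at 83026152, past the GENCODE start of 83026076, so its HNF1 letters lie inside the GENCODE gene. The interleukin-6 response letters CTGGGAA were found in Fgb and Fgg and in 9.1% of all windows. The C/EBP letters TTGCNNCAA were found in Fga and in 1.74% of all windows, and the HNF4 letters CAAAGTCCA in 0 of the 9 windows of these genes (Apoa2 has 2) and in 0.384% of all. The TATA box letters TATAAA were found in Apoa2 and Apob and in 12.4% of all windows. All motifs were searched on both strands, and a match is a description of letters. The fibrinogen genes are neighbours on chromosome 3, with Fgg at 83007724 to 83015049, Fga at 83026076 to 83033627 and Fgb at 83040141 to 83049863. Apoa1 (46228580 to 46230466) and Apoc3 (46232933 to 46235636) are neighbours on chromosome 9.

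The samples held 46401496 to 103912264 counted reads each, and the 10 genes had at least 41 counts in every sample (Apob at day 1), so each was detected everywhere. Intervals from such counts would cover counting error only. The LSEC markers were high in all samples: 10 of them, among them Clec4g, Fcgr2b and Stab2, summed to 16313 to 19678 CPM (counts-per-million of the scaled library) in healthy samples and to 9796 to 15178 CPM after CCl4, and 0 of them was below the detection floor of 3 counts in every sample. Markers of monocytes and neutrophils summed to 508 to 1365 CPM in healthy samples, 4315 and 8460 CPM at day 1, 1332 to 12454 CPM at day 3 and 4126 to 9535 CPM at day 7. The day 7 sum was mostly Lyz2, at 3919 to 9304 CPM, the 1 marker of these 8 that edgeR called higher at day 7. S100a9 was at 46.5 to 90.0 CPM at day 7 against 9.99 to 81.7 CPM in healthy samples, and S100a8 at 28.9 to 45.8 CPM against 4.03 to 34.0 CPM. One healthy sample stood apart from the other 3 in hepatocyte genes. In healthy replicate 4, 489 of 26626 genes were over 10 times higher than in each other healthy sample, 85 of them from the lists of hepatocyte genes, and all 10 genes followed here were among the 489. For healthy replicates 1, 2 and 3 the same count was 5, 4 and 12 genes, with 0 of the 10. Markers of hepatic stellate cells, which store vitamin A and lay down matrix, summed to 128 to 252 CPM in healthy samples, 87.4 and 92.9 CPM at day 1, 390 to 1219 CPM at day 3 and 238 to 3322 CPM at day 7, and edgeR called 6 of these 8 markers higher at day 3 (5 without healthy replicate 4) and 7 at day 7 (7 without it). The part of these other cells in the levels of the 10 genes was not tested. The tests of the 10 genes and their correlations with Alb are given with and without healthy replicate 4.

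Albumin had the most reads of the 10 genes by its mean, though Apoa1 was above it in day 3 replicate 2. Alb was at 95.6, 68.8, 124 and 2611 CPM in healthy replicates 1 to 4, at 12.3 and 59.8 CPM at day 1, at 247, 577, 1206 and 939 CPM at day 3, and at 1450, 2691, 281 and 764 CPM at day 7. Both day 1 samples lay under every healthy sample, while the day 3 and day 7 samples lay between healthy replicates 1 to 3 and healthy replicate 4, with day 7 replicate 2 above it. The healthy mean of 725 ± 1258 CPM (SD, n = 4) was set by replicate 4, and the mean of the other 3 was 96.2 ± 27.8 CPM (SD, n = 3).

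The apolipoproteins had the same shape. Apoa1 was at 45.3, 38.4, 73.9 and 1652 CPM in healthy samples, at 4.39 and 18.7 CPM at day 1, at 242, 659, 697 and 354 CPM at day 3 and at 584, 1081, 151 and 294 CPM at day 7. Apoa2 was at 48.9, 38.1, 83.0 and 1578 CPM in healthy samples, at 3.94 and 17.3 CPM at day 1, at 120, 280, 280 and 104 CPM at day 3 and at 478, 985, 139 and 470 CPM at day 7. In both high-density lipoprotein genes healthy replicate 4 was the highest of all 14 samples and day 1 replicate 1 the lowest. Apob ran from 5.12 to 10.3 CPM in healthy replicates 1 to 3 and stood at 223 CPM in replicate 4, against 0.49 and 4.42 CPM at day 1, 8.18, 35.2, 66.0 and 83.7 CPM at day 3 and 95.8, 241, 33.4 and 84.4 CPM at day 7. Day 3 replicate 1 was within the range of healthy replicates 1 to 3 for Apob, which was seen for no other gene of the 10. Apoc3 was at 7.71 to 12.7 CPM in healthy replicates 1 to 3, 305 CPM in replicate 4, 0.538 and 4.58 CPM at day 1, 49.4 to 137 CPM at day 3 and 25.7 to 169 CPM at day 7.

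Transthyretin and alpha-1-antitrypsin did not depart from this order. Ttr was at 34.3, 19.5, 44.3 and 903 CPM in healthy samples, at 3.29 and 10.0 CPM at day 1, at 147, 305, 373 and 126 CPM at day 3 and at 322, 712, 137 and 364 CPM at day 7. Serpina1a was at 29.1, 25.0, 47.9 and 1087 CPM in healthy samples, at 6.6 and 23.4 CPM at day 1, at 107, 252, 369 and 178 CPM at day 3 and at 297, 529, 58.8 and 149 CPM at day 7. Serpina1a has near-identical neighbours, Serpina1b to Serpina1e, so reads may have been split among them and its count is uncertain.

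The fibrinogen chains were the most spread in healthy samples, with replicate 4 at 42.8 times (Fga), 40.0 times (Fgb) and 40.8 times (Fgg) the mean of the other 3, against 27.1 to 31.9 times for the other 7 genes. Fga was at 18.0, 16.4, 28.8 and 902 CPM in healthy samples, at 6.73 and 15.7 CPM at day 1, at 38.2, 144, 149 and 104 CPM at day 3 and at 312, 455, 42.4 and 115 CPM at day 7. Fgb was at 26.7, 17.5, 35.7 and 1065 CPM in healthy samples, at 1.82 and 16.8 CPM at day 1, at 84.9, 352, 214 and 125 CPM at day 3 and at 396, 688, 68.6 and 169 CPM at day 7. The 2 day 1 samples differed 9.23-fold in Fgb and 2.33-fold in Fga. Fgg was at 14.9 to 26.9 CPM in healthy replicates 1 to 3, 853 CPM in replicate 4, 3.38 and 11.0 CPM at day 1, 57.4 to 251 CPM at day 3 and 47.2 to 466 CPM at day 7. The Fgg locus overlaps Gm30097, a long noncoding RNA gene on the other strand, and the use of strand in counting is not given in the sources used here.

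Over all 10 genes, day 1 replicate 1 was the lowest sample for 10 and healthy replicate 4 the highest for 8, with day 7 replicate 2 the highest for Alb and Apob. The highest sample was 134 (Fga) to 586 (Fgb) times the lowest. Summed over the 10 genes, the level was 253 to 11178 CPM in healthy samples (median 410), 43.5 and 182 CPM at day 1, 1101 to 3621 CPM at day 3 (median 2582) and 985 to 8018 CPM at day 7 (median 3493). Within day 7, the highest sample was 5.18 (Ttr) to 10.7 (Fga) times the lowest, and within day 3, 2.7 (Apoa2) to 10.2 (Apob) times.

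**Figure D1:**
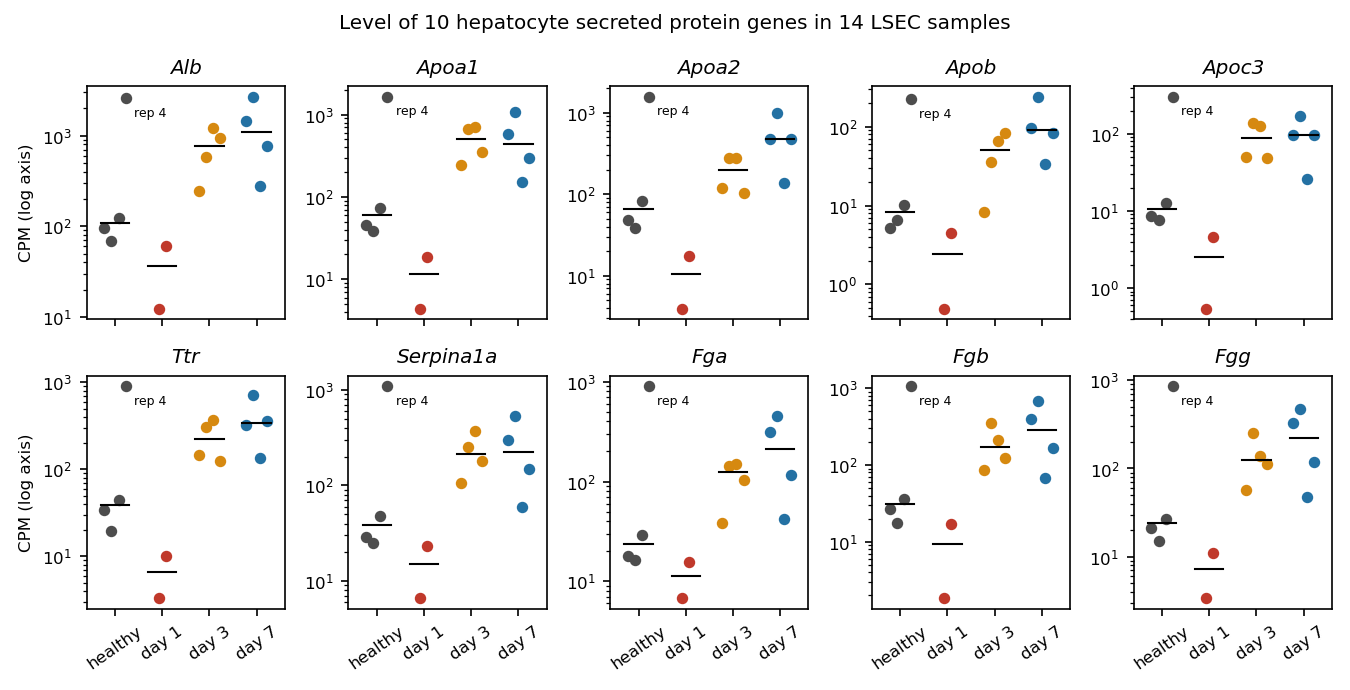
Level of each gene in CPM (log axis) in the 14 samples by group, with points for samples and bars for group medians. Healthy replicate 4 lies 19.0 to 31.7 times above the next healthy sample, and both day 1 samples lie under all healthy samples in every panel.

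Levels were ordered across genes as CPM per kilobase of exon. By the mean log2 of this measure over 14 samples the order was Apoa2, Alb, Apoa1, Ttr, Serpina1a, Fgg, Apoc3, Fgb, Fga and Apob, with medians from 241 CPM per kilobase (Apoa2) to 2.46 CPM per kilobase (Apob). Apob, the longest transcript, was the lowest in 14 of 14 samples. Alb was above Apoa1 in 7 samples of 14, Fgg above Apoc3 in 8 and Fgb above Fga in 8, so these neighbours in the order were not separated by the samples. Apoa2 was above Alb in 13 samples and Serpina1a above Fgg in 14.

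The first comparison asked how these genes stood 1 day after CCl4. Their levels were 19.8-fold (Serpina1a) to 41.2-fold (Apoa2) lower at day 1 than in healthy samples by the fitted means, and 0 of the 10 passed the test. The log2 fold changes ran from -5.36 (Apoa2; SE 1.69) to -4.31 (Serpina1a; SE 1.65), with a median of -4.97 beside -0.031 over all tested genes. In edgeR's quasi-likelihood test over 26626 genes, 4.06% were called at day 1, and the adjusted p of the 10 genes lay between 0.0967 (Ttr) and 0.198 (Fga). All 10 had an unadjusted p under 0.05, and DESeq2, which called 10.7% of the genes, called 10 of the 10 lower. Both day 1 samples were under all 4 healthy samples in 10 of 10 genes, a separation that 37.9% of all tested genes showed in one direction or the other. Without healthy replicate 4 the log2 fold changes were -2.44 (Apoa2) to -0.93 (Fga), with a median of -1.58, and 0 of the 10 were called among 2.77% of all genes. In that fit 4 genes, Apoa1, Apoa2, Apoc3 and Ttr, had an unadjusted p under 0.05.

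The direction at day 3 turned on the same sample. With all healthy samples the log2 fold changes lay between -1.16 (Apoa2; SE 1.04) and 0.12 (Apoc3; SE 1.07), with a median of -0.37 beside 0.18 over all genes, and edgeR called 0 of the 10 among 7.19% of all genes, with 0 at an unadjusted p under 0.05 and 0 in DESeq2. Without healthy replicate 4 they lay between 1.68 (Apoa2) and 3.12 (Apoc3), with a median of 2.70, and 3 of the 10 were called higher: Apoa1 (log2 fold change 3.11, SE 0.71, adjusted p 0.0294), Apoc3 (3.12, SE 0.74, adjusted p 0.0351) and Ttr (2.76, SE 0.61, adjusted p 0.026). That fit called 4.43% of all genes. The 4 day 3 samples lay above healthy replicates 1 to 3 in 9 of 10 genes (Apob was the exception), as 18.3% of all genes did not overlap in this set, and 0 of the 10 were clear of all 4 healthy samples, against 14.4% of all genes.

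At day 7 the calls again differed with and without healthy replicate 4. With all healthy samples the log2 fold changes were -0.20 (Serpina1a; SE 1.06) to 0.89 (Apob; SE 1.14), with a median of 0.22 beside 0.015 over all genes, and edgeR called 0 of the 10 among 3.18% of all genes, with 0 at an unadjusted p under 0.05 and 0 in DESeq2. Without healthy replicate 4, all 10 were called higher, among 3.63% of all genes. Their log2 fold changes were then 2.96 (Serpina1a; SE 0.72) to 3.99 (Apob; SE 0.95), with Alb at 3.79 (SE 0.83), and the adjusted p ran from 0.015 (Ttr) to 0.0414 (Serpina1a). The 4 day 7 samples lay above healthy replicates 1 to 3 in 10 of 10 genes, beside 29.6% of all genes without overlap, and in 0 of 10 did they clear all 4 healthy samples, beside 20.8%. limma-voom, which gave each sample a quality weight, kept healthy replicate 4 and called 5 of the 10 higher at day 7 (26.5% of all genes were called) and 1 at day 3 (27.3% of all genes).

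Between days 1 and 3, the levels were higher at day 3 in every gene, with log2 fold changes from 3.28 (Fga; SE 1.65) to 5.40 (Apoa1; SE 1.74), and 0 of 10 passed edgeR's test, which called 2.54% of all genes. The unadjusted p was under 0.05 for 9 of the 10, all but Fga. This comparison holds no healthy sample, but healthy replicate 4 entered the shared estimate of spread: without it the fold changes were nearly as before, from 3.21 (Fga) to 5.32 (Apoa1), and 7 of the 10 were called higher among 3.52% of all genes, all but Fga, Fgb and Apob. DESeq2 called 9 of the 10 (all but Fga; 9.04% of all genes), limma-voom 5 (12.6%) and edgeR on the 2 groups alone 2 (0.762%), Apoa1 and Ttr. Between days 3 and 7 the log2 fold changes were 0.10 (Apoc3; SE 1.07) to 1.40 (Apoa2; SE 1.05), and 0 of 10 were called, among 1.77% of all genes, with 0 at an unadjusted p under 0.05 and 0 in DESeq2. The comparisons with healthy samples share those samples, so they are not independent of each other.

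**Figure D2:**
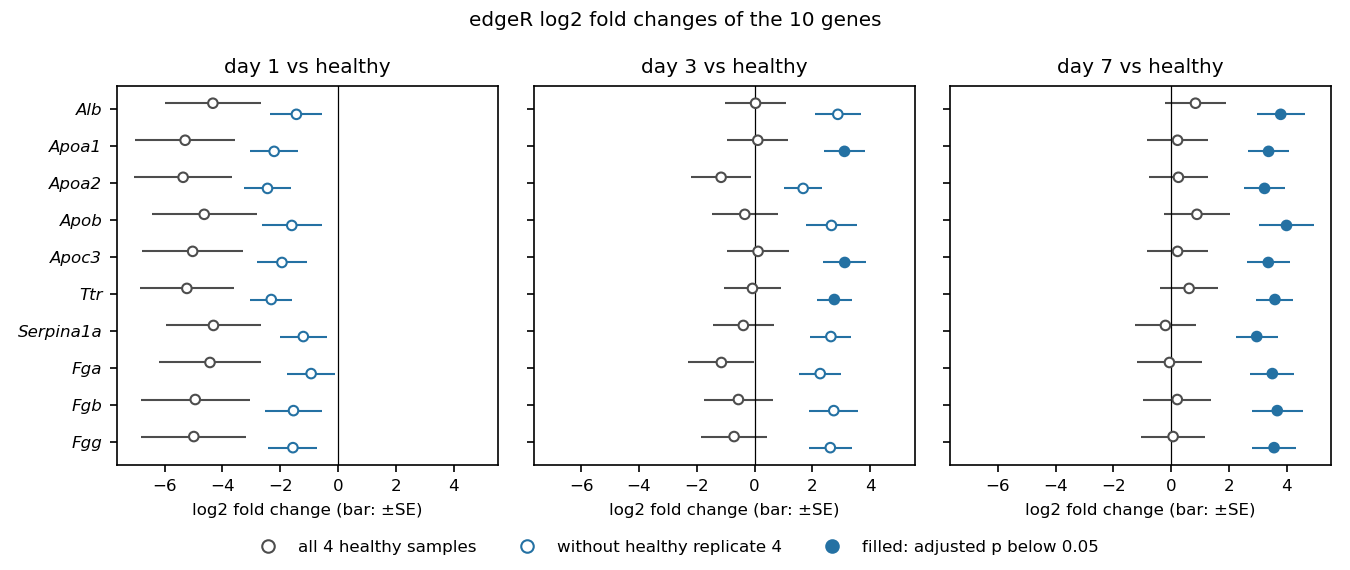
edgeR log2 fold changes (points; bars, ±SE) of the 10 genes against healthy samples at each day, with all 4 healthy samples (grey) and without healthy replicate 4 (blue), filled where the adjusted p was below 0.05. The grey points include 0 filled ones, while 3 of 10 blue points are filled at day 3 and 10 of 10 at day 7.

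A ratio of 2 genes within a sample does not depend on library size, so the reads of each other gene were divided by the Alb reads of the same sample. The SD of log2 CPM over the 14 samples was 2.06 to 2.54 for the 10 genes (median over all tested genes 0.77), and the SD of the log2 ratio to Alb was 0.52 to 0.70 for the 9. Healthy replicate 4 was no longer apart. Its Apoa1 reads were 63.3 per 100 Alb reads, against 47.4, 55.8 and 59.4 in the other healthy samples, and its Serpina1a reads were 41.6, against 30.5, 36.4 and 38.5. The fibrinogen chains were its exception. Fgg stood at 32.6 reads per 100 Alb reads in replicate 4 and at 22.0, 21.6 and 21.6 in the other 3, Fga at 34.5 against 18.8 to 23.9, and Fgb at 40.8 against 25.4 to 28.7.

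In 27 exact two-sided permutation tests of these ratios against healthy samples, 0 passed after Benjamini-Hochberg adjustment (lowest adjusted p 0.225). With 2 samples against 4 the smallest possible p is 0.0667, with 4 against 4 it is 0.0286, and 16 of the 27 tests would need the latter for an adjusted p under 0.05. The ratios are given in full for the genes whose groups did not overlap.

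Serpina1a had the most uniform ratio at day 7. It was at 20.5, 19.7, 20.9 and 19.5 reads per 100 Alb reads in the 4 day 7 samples, against 30.5 to 41.6 in healthy samples, a mean log2 ratio of -2.31 ± 0.049 (SD, n = 4) against -1.45 ± 0.19 (SD, n = 4). The difference was -0.86 (exact permutation p = 0.0286, adjusted p 0.225), a 1.82-fold lower ratio in 4 of 4 samples. At day 1 the ratio was 53.6 and 39.2, and at day 3 it was 43.4, 43.7, 30.6 and 18.9. Because its paralogs may share reads, the 5 genes Serpina1a to Serpina1e were also summed, a choice made after the values were seen. The sum was 72.1 to 82.1 reads per 100 Alb reads at day 7 and 106 to 150 in healthy samples (log2 difference -0.76), so the groups did not overlap for the sum either.

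Apoa2 was the gene of the 9 whose day 3 ratios did not overlap the healthy ones. It was at 48.6, 48.6, 23.2 and 11.1 reads per 100 Alb reads there, all under the healthy samples at 51.1, 55.4, 66.8 and 60.4 (log2 difference -1.06, exact permutation p = 0.0286, adjusted p 0.225). At day 7 it was at 33.0, 36.6, 49.5 and 61.5, which overlapped the healthy range. The ratios of Apoa2 at day 3 and of Serpina1a at day 7 were the single non-overlap of 9 at each day, beside 0.939% and 1.78% of all tested genes. Few tested genes followed Alb closely, and the high Alb of healthy replicate 4 spread the healthy ratios of the others. Apoe ran from 135 to 6290 reads per 100 Alb reads in healthy samples. Among 12 hepatocyte enzymes, 5 ratios lay under all healthy samples at day 3 and 1 at day 7, so 1 of 9 does not stand out among hepatocyte genes.

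At day 1, 4 of the 9 ratios lay under all healthy samples: Apoa1 (35.7 and 31.3 reads per 100 Alb reads), Apoa2 (32.0 and 28.9), Apoc3 (4.37 and 7.66) and Ttr (26.7 and 16.8), each with an exact permutation p of 0.0667. With the summed hepatocyte enzymes in place of Alb the direction turned for 2 of them, from a log2 difference of -0.75 to 0.086 for Apoa1 and from -0.66 to 0.18 for Ttr. The share of all tested genes whose ratio to Alb did not overlap at day 1, in either direction, was 56.0%. Alb itself was low in both day 1 samples, and the median log2 difference of the ratio over all genes was 3.0, upward where these 4 lay lower. Unlike these 4, the Fga ratio was higher on average, at 54.7 and 26.2 against 18.8 to 34.5 in healthy samples, with overlap. Day 1 replicate 1 held 3.7 times as many Fga as Fgb reads, the highest of 14 samples, where the median was 0.742, and it had the fewest reads of these genes, 563 of Fga and 152 of Fgb.

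The day 3 samples split in each of these ratios but that of Apob, with replicates 1 and 2 above replicates 3 and 4. Apoa1 was at 98.3 and 114 reads per 100 Alb reads in replicates 1 and 2 and at 57.8 and 37.7 in replicates 3 and 4. Apoc3 was at 20.2 and 23.7 against 10.6 and 5.26, Ttr at 59.5 and 52.8 against 30.9 and 13.5, and Fgb at 34.4 and 61.0 against 17.8 and 13.3. Apoa2 was at 48.6 and 48.6 against 23.2 and 11.1, and Serpina1a at 43.4 and 43.7 against 30.6 and 18.9. Fgg was at 23.3 and 43.6 against 11.5 and 11.9, and Fga at 15.5 and 24.9 against 12.4 and 11.0. The higher pair lay above the healthy range for Apoa1, Apoc3, Ttr and, by little, Serpina1a (healthy highest 41.6). Apob did not split this way, at 3.32 and 6.11 in replicates 1 and 2 and 5.47 and 8.92 in replicates 3 and 4. Alb, the shared denominator, was at 247 and 577 CPM in replicates 1 and 2 and at 1206 and 939 CPM in replicates 3 and 4. The same samples differed in other cells' markers: monocyte and neutrophil markers summed to 12454 and 7677 CPM in replicates 1 and 2 and to 1446 and 1332 CPM in replicates 3 and 4, and Kupffer cell markers to 642 and 712 CPM against 210 and 207 CPM. Red blood cell markers summed to 1129 and 1290 CPM against 237 and 171 CPM, and cholangiocyte markers to 1020 and 1203 CPM against 325 and 364 CPM. Nearly all of the cholangiocyte sum was 1 gene, Spp1, at 997 and 1164 CPM against 313 and 351 CPM. Epcam of the same list was at 4.78 and 5.77 CPM against 2.85 and 0 CPM. The part of these cells in the ratios was not tested, and the labels give no batch for the samples.

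**Figure D3:**
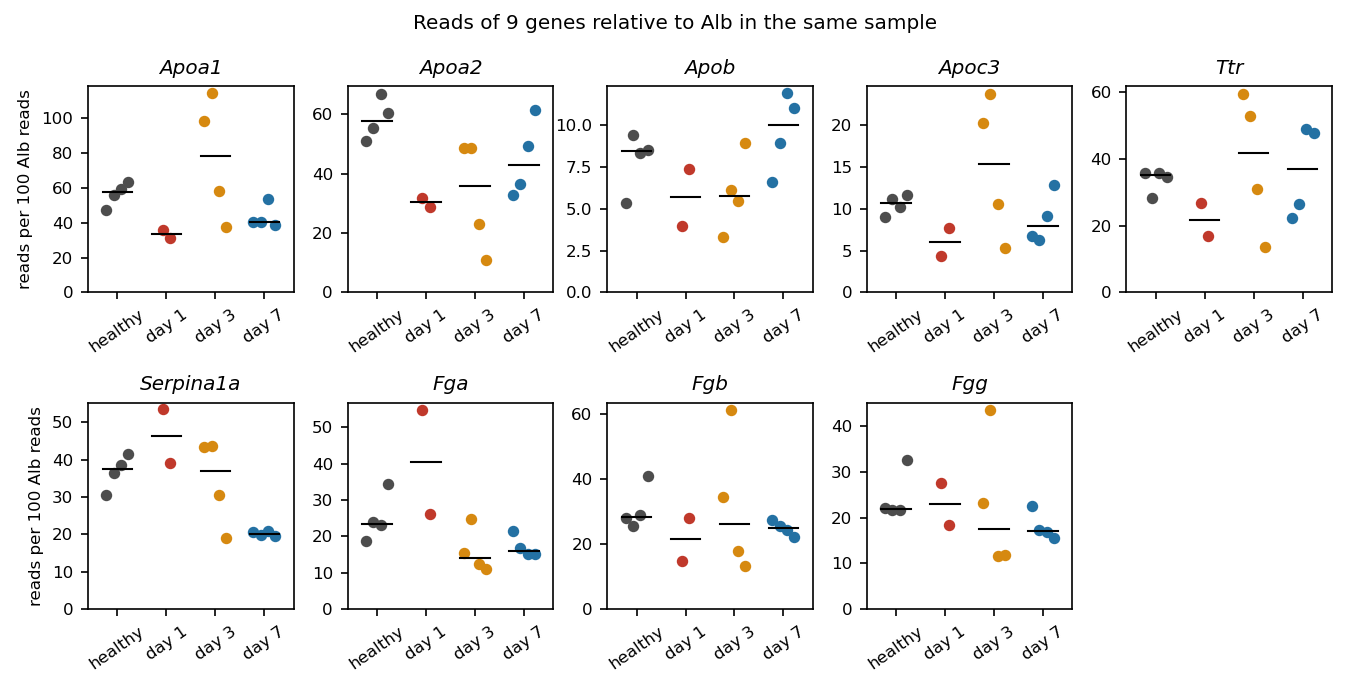
Reads of each of 9 genes per 100 Alb reads of the same sample, by group, with points for samples (replicates in order) and bars for group medians. Serpina1a at day 7 lies at 19.5 to 20.9, under the healthy samples at 30.5 to 41.6, and the day 3 samples are split for Apoa1, Apoc3 and Ttr.

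The 9 genes followed Alb from sample to sample. Pearson's r with Alb in log2 CPM over 14 samples was 0.955 (Apoa2) to 0.98 (Apob) and Spearman's rho 0.908 (Apoc3) to 0.978 (Fga), each with a permutation p of 1e-05, the smallest that 100000 resamples give, and Benjamini-Hochberg adjusted p of 1e-05 over the 9 correlations. Without the 2 samples farthest from the median of Alb, both of day 1, r was 0.914 to 0.967. With group means removed, r was 0.925 to 0.979, so the genes varied together within groups as well. Without healthy replicate 4, an alternative chosen after the data were seen, r was 0.949 (Apoa2) to 0.981 (Serpina1a) over 13 samples and 0.806 (Ttr) to 0.952 (Serpina1a) with group means removed. The points share their library depth and scaling. Within the families, the Apoa1 to Apoc3 read ratio ran from 3.0 to 8.16 (SD of log2 0.35) and the Fga to Fgg ratio from 0.572 to 1.99 (SD of log2 0.43), while Apoa1 to Apoa2 ran from 0.626 to 3.41 (SD of log2 0.68).

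Other hepatocyte genes were set beside them. Of 45 other plasma protein genes, the median r with Alb was 0.961, and 35 had an r above 0.9. The 12 intracellular enzymes of hepatocytes all had an r above 0.9 (median 0.945), and their sum was 104 to 198 CPM in healthy replicates 1 to 3, 3829 CPM in replicate 4 and 10.9 and 47.7 CPM at day 1. Apoe, which many cells including macrophages make, was at 1827 to 5930 CPM with an r of 0.266, and Trf, transferrin, at 72.9 to 2351 CPM with an r of 0.903. Serpina3k, a serine protease inhibitor of the same superfamily as alpha-1-antitrypsin, followed Alb with an r of 0.961.

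The other lists were looser. Median r was 0.853 for 11 acute-phase genes, 0.9 for 10 periportal and 0.837 for 11 pericentral hepatocyte genes, 0.776 for 12 transcription factors and 0.649 for 8 genes of lipoprotein assembly. Genes with an r under 0.5 included Lbp (lipopolysaccharide-binding protein), Glul (glutamine synthetase), Oat, Surf4, Sar1b, Mia2 and Cebpa. For LSEC markers the median r was -0.168, for Kupffer cell markers -0.263, for monocyte and neutrophil markers -0.495, for stellate cell markers 0.639, for cholangiocyte markers 0.22 and for red blood cell markers 0.309. Without healthy replicate 4, the median r of stellate cell markers was 0.77, above transcription factors (0.742) and lipoprotein assembly (0.579). It was then 0.849 for acute-phase, 0.897 for periportal and 0.81 for pericentral genes, and -0.237 for LSEC markers.

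**Figure D4:**
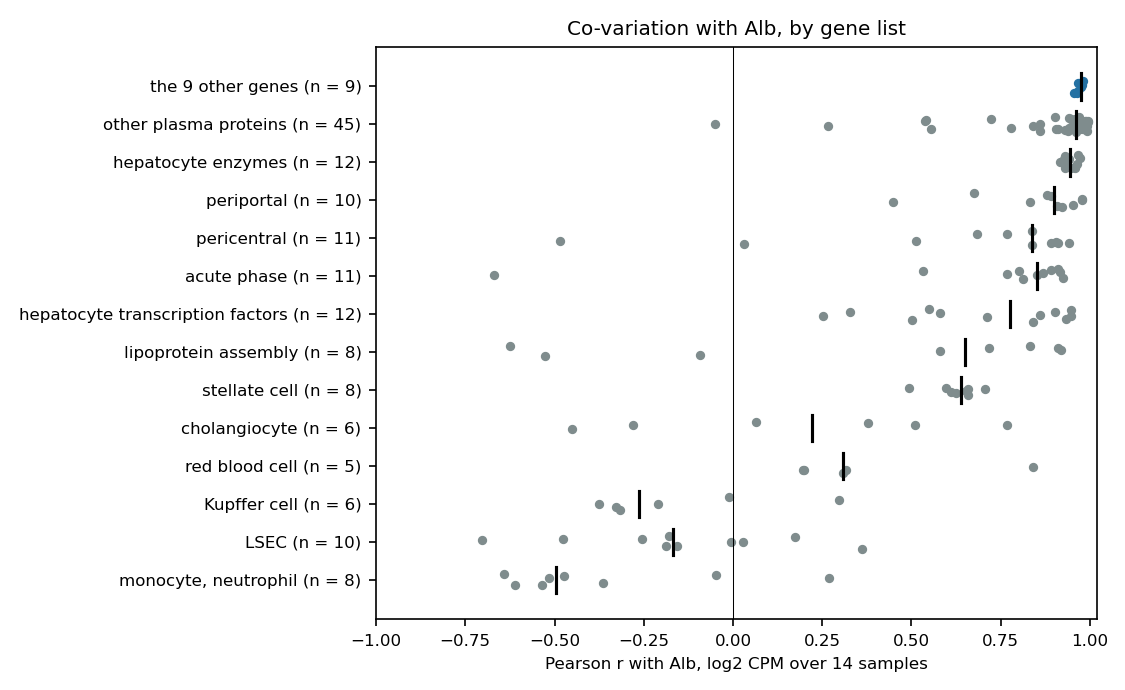
Pearson r of each gene with Alb (log2 CPM, 14 samples) by gene list, with points for genes and bars for list medians. The 9 genes lie between 0.955 and 0.98, while LSEC, Kupffer cell, monocyte and neutrophil markers lie below 0.5.

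Among all tested genes, 326 of 26616 had an r above 0.9 with the mean log2 CPM of the 10 genes, 60 of them from the hepatocyte lists. The 10 most alike were Kng1 (r 0.997; kininogen), Gc (0.995; vitamin D-binding protein), Apof, Cyp2c70, Dmgdh, Serpina1c, Asgr1 (the hepatocyte asialoglycoprotein receptor), Nat8f2, Hsd17b13 and Gltpd2 (0.99). Kng1 ran from 0.777 CPM at day 1 to 367 CPM in a healthy sample. The lowest r were those of Ddx3x (-0.861), Myd88 (-0.861) and Ptpn12 (-0.858).

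In the tests, the hepatocyte lists gave few calls against all 4 healthy samples. Of the 45 other plasma proteins, Apoe was called lower at day 1 (log2 fold change -1.28, SE 0.25, adjusted p 0.01) and day 3 (-0.72, SE 0.19, adjusted p 0.036), and 0 were called at day 7 (median log2 fold change 0.34). Without healthy replicate 4, 31 of the 45 were called higher at day 7 and 0 lower, and 11 were called higher at day 3. Of the 12 enzymes, Bhmt (log2 fold change -9.58, SE 2.49, adjusted p 0.0483), Hpd (-8.04, SE 2.01, adjusted p 0.0396) and Ttc36 (-6.79, SE 1.78, adjusted p 0.0496) fell at day 1. The same 3 were called lower without healthy replicate 4, with smaller log2 fold changes of -5.95, -4.98 and -3.93. Bhmt had 0 and 33 counts in the day 1 samples, so its fitted fold change rests on few reads there. It was at 534 CPM in healthy replicate 4 and at 8.6 to 16.4 CPM in the other healthy samples. The count of enzymes called higher at day 7 went from 0 to 9 without that sample. Of 11 acute-phase genes, Lbp rose at day 1 (0.89, adjusted p 0.0104) and fell at day 3 (-1.03, adjusted p 0.00211). At day 7 Lbp was also lower (-0.59, adjusted p 0.0432, and 0.0903 without healthy replicate 4). Lbp did not follow Alb (r -0.67), and it was at 91.3 to 102 CPM in healthy samples, replicate 4 included. Hamp, the iron hormone hepcidin, was called higher and Lbp lower at day 3 than at day 1. Against healthy samples without replicate 4, 2 of the 11 were called higher at day 1, 4 at day 3 and 6 at day 7. In those comparisons 1 was called lower, Lbp at day 3. Of the lipoprotein assembly, transcription factor, pericentral and periportal lists 0 genes were called in any of the 5 comparisons, while without healthy replicate 4 the highest count called higher was 6 (periportal, day 7) and 0 were called lower.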

How the data were processed

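RNA of sorted LSECs was sequenced in 14 samples, treated here as separate mice. The authors trimmed the reads, used STAR with the GRCm38.p6 genome and then StringTie, and deposited raw whole-number counts per Ensembl gene, not normalized. The tool versions, the annotation and the use of strand are not given in the sources used here, and the text calls the sequencing both paired-end and single-end. Reads shared by paralogs or overlapping genes may therefore be split or merged. Sample labels gave the groups, and 0 columns were left unused. Symbols, positions and exon lengths came from GENCODE vM21.

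Genes were filtered with filterByExpr by group (minimum count 10, minimum total count 15), scaled with TMM and tested with edgeR 4.0.16 (R 4.3.3, quasi-likelihood, all 14 samples in 1 model of 4 group means, Benjamini-Hochberg over 26626 genes, threshold 0.05). CPM used TMM-scaled library sizes, and log2 CPM a prior count of 2. The SE of a log2 fold change is its size over the square root of F. Ratios to Alb were taken from counts with a pseudocount of 0 for the 9 genes and 0.5 for others, and tested by exact permutation. Non-overlap of levels was read from log2 CPM. The edgeR step was tested on simulated data in which 200 genes had a log2 change of 2. It recovered 26.5% of them for day 1 against healthy among 25338 genes, 37.0% for day 3 among 25360 and 36.0% for day 7 among 25315.

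The genes and lists were chosen with earlier results of these data known. Named were the 10 genes, the 3 most abundant and up to 4 called genes with the largest change of each list, the 10 genes most like and the 3 least like the 10, and the exceptions said to be chosen after their values were seen. Alternatives were DESeq2 1.42.0, limma 3.58.1 (voom), RLE factors, library size only, other filters, models of 2 groups, the sample number as a block, other denominators and pseudocounts, and leaving out each sample.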

Additional observations from a re-analysis of the deposited data

Results flagged for a closer look

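In groups of 4 samples, the gap between the most extreme sample and its neighbour was divided by the range of the group and compared with Dixon's 95% limit. Of 57 groups tested over the levels of 10 genes and the ratios of 9, 7 passed it, where chance flags about 1 in 20 groups. The groups are not independent, because the levels varied together and the ratios share the Alb reads. The 4 flagged levels were all of healthy replicate 4, so the 7 are not separate observations.

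Healthy replicate 4 was flagged as high in the log2 CPM of Alb (gap of 0.837 of the range), Apoc3 (0.864), Fga (0.86) and Fgg (0.854). The same sample was flagged as high in the ratio of Fgg to Alb (0.961), at 32.6 reads per 100 Alb reads against 21.6 to 22.0 in the other healthy samples. Healthy replicate 2 was flagged as low in the ratio of Ttr to Alb (0.845), at 28.3 reads per 100 Alb reads against 34.6 to 35.9. Day 7 replicate 3 was flagged as high in the ratio of Apoa1 to Alb (0.862), at 53.5 reads per 100 Alb reads against 38.5 to 40.3.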

How the results depend on the processing

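edgeR called 0 of the 10 genes in each of the 5 comparisons. DESeq2 called 10 at day 1 against healthy and 9 at day 3 against day 1, limma-voom with sample quality weights called 1 at day 3 and 5 at day 7 against healthy and 5 at day 3 against day 1, and edgeR on the 2 groups alone called 2 at day 3 against day 1. With 1 sample left out at a time the counts ran from 0 to 3 at day 3, from 0 to 10 at day 7 and from 0 to 7 at day 3 against day 1, each highest without healthy replicate 4, and stayed at 0 at day 1 and between days 3 and 7. Without 1 of the 2 day 1 samples, the other is assumed to vary like the other groups.

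Directions turned for small changes. For Apoa2 at day 3 the log2 fold change was 1.38 by limma-voom and 0.35 with the replicate block, and ran from -1.61 to 1.68 with 1 sample left out. For Apoc3 at day 3 it was -0.037 with no filter beyond 1 count, -0.012 on the 2 groups alone, and -0.31 to 3.12 with 1 sample left out. For Serpina1a at day 7 it was 1.74 by limma-voom, 1.40 with the block and -0.82 to 2.96 with 1 sample left out. For Apoc3 between days 3 and 7 it was -0.28 by limma-voom, -0.10 with the block and -0.30 to 0.56 with 1 sample left out. Against the summed hepatocyte enzymes in place of Alb, the day 1 log2 ratio differences of Apoa1 and Ttr were 0.086 and 0.18. Ratio counts stayed at 0 under each alternative run. The cause of these shifts was not tested.

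With the sample number as a replicate block, 0 of the 10 genes were called in any comparison, and the median log2 fold changes were -3.62, 1.11 and 1.75 at days 1, 3 and 7. Samples of the same number were not more alike by this measure: deviations from group means correlated at -0.232 to 0.0962 over 18 same-number pairs, with 0 above 0.1, and 0 of 14 samples correlated best with one of their own number. With so few samples in a group, this check cannot exclude that samples of the same number were handled together. Each of the 10 genes had at least 41 counts in every sample.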

Other observations

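Other plasma protein genes were also read against Alb, which shows unequal change within a sample. Of 45 genes, 13 had ratios to Alb under all healthy samples at day 3 and 0 above, and at day 7 13 were under and 1 above (Serpina6, corticosteroid-binding globulin), beside 0.939% and 1.78% of all tested genes without overlap. Few of all tested genes followed Alb closely, so that share is not a like background for these 45. The major urinary protein genes were among them and were chosen after their values were seen, so no test is given for their ratios or for those of the genes that follow. Mup3 stood at 137, 139, 114 and 131 reads per 100 Alb reads in healthy samples, healthy replicate 4 included, at 57.9 and 84.5 at day 1, at 25.6, 29.6, 15.3 and 6.22 at day 3 and at 12.4, 6.81, 15.6 and 21.8 at day 7. The mean ratio was 7.92-fold lower at day 3 and 9.98-fold lower at day 7 than in healthy samples. Mup20, darcin, was at 12.5 to 16.0 reads per 100 Alb reads in healthy samples, at 1.27 to 4.65 at day 3 and at 0.331 to 0.768 at day 7 (25.2-fold lower). Major urinary protein genes are a family of close copies, and how reads shared among them were counted is not given in the sources used here, so the values of single copies are uncertain.

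Of 10 periportal genes, 5 had ratios to Alb under all healthy samples at day 3 and 3 at day 7, with 0 above. At day 1, 4 were above and 4 under. Of 11 pericentral genes, 2 were above all healthy samples at day 1, 1 at day 3 and 3 at day 7, with 0 under. The share of all tested genes without overlap was 56.0%, 0.939% and 1.78% at days 1, 3 and 7. Among periportal genes, 2 were also chosen after their values were seen. Cyp2f2 was at 6.84 to 15.5 reads per 100 Alb reads in healthy samples, 1.09 to 3.01 at day 3 and 2.12 to 4.47 at day 7. Pck1, the gluconeogenic enzyme, was at 6.84 to 10.6 in healthy samples, 0.986 to 4.14 at day 3 and 3.38 to 6.83 at day 7. Arg1, arginase of the periportal list, had ratios of 5.27 to 8.18 in healthy samples and 399 and 23.8 at day 1, where Alb reads were few. Its ratios were then 4.83 to 44.8 (day 3) and 3.52 to 20.4 (day 7). They lay above the healthy range at day 1 and overlapped it at days 3 and 7. Arg1 itself was at 49.1 and 14.3 CPM at day 1, between the 5.04 to 7.84 CPM of healthy replicates 1 to 3 and the 185 CPM of replicate 4. Haptoglobin (Hp), a hemoglobin-binding acute-phase protein chosen in the same way, was higher against Alb at day 1, where Alb reads were few, with 2210 and 275 reads per 100 Alb reads against 13.7 to 18.4 in healthy samples. Hp itself was at 272 and 165 CPM at day 1, between the 15.1, 12.7 and 22.8 CPM of healthy replicates 1 to 3 and the 359 CPM of replicate 4. Its log2 fold change in edgeR was 1.09 (adjusted p 0.733) and, without healthy replicate 4, 3.67 (adjusted p 0.0397). Monocyte and neutrophil markers summed to 8460 and 4315 CPM at day 1, against 508 to 1365 CPM in healthy samples. The part of these cells in the Hp and Arg1 reads was not tested.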
